A study of Danio rerio with 12 samples.

Results

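*pglyrp5* and *csf1ra* are genes of innate immunity. They were followed in whole zebrafish larvae exposed to lead (Pb), as 2 of the 2650 genes that could be named on an array of 37157 targets. The probes of a target are designed against a single known or predicted transcript, and each of these genes has 1 target, found through its RefSeq transcript. The 34494 targets without a name here may hold others of the same genes. All larvae were of the wild-type AB strain. The groups were 100 ppb Pb (as lead acetate) through 120 hpf, control water (0 ppb) through 120 hpf, 100 ppb Pb through 72 hpf, and control water through 72 hpf, with exposure from about 1 hpf and hpf standing for hours postfertilization. Each group holds 3 arrays, 12 in all, and each array carries the RNA of a pool of about 50 larvae. Both genes were chosen with their levels in these 4 groups known, so their differences between groups are given as a description, with no test.

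Peptidoglycan recognition proteins, the family of *pglyrp5*, bind the cell wall of bacteria, and several of them also cleave it. In zebrafish larvae such germline-encoded defenses work before adaptive immunity has matured. *csf1ra* encodes a receptor tyrosine kinase for colony stimulating factor 1 that acts in macrophages and microglia. In zebrafish the same receptor is needed for xanthophores, the yellow pigment cells. RNA was taken from whole larvae, so fewer cells of a type and less RNA per cell cannot be told apart.

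The 2 genes differ in how firmly the array measured them. *pglyrp5* has 5 probes, at positions 305 to 1151 nt of its transcript, and *csf1ra* has 10, at 125 to 3246 nt. The deposited intensities of *pglyrp5* ran from 20.02 to 275.78, and all 60 values (5 probes on 12 arrays) lay below the median probe of their own array. The array medians ran from 375.8 to 531 at 120 hpf and from 424.5 to 669.9 at 72 hpf. For *csf1ra* the intensities ran from 17.68 to 2161.09, and 89 of 120 values lay below the array median. Of its 10 probes, 5 were below the median on every array. After log2 transformation, quantile normalization, and averaging of the probes, the mean log2 intensity over 12 arrays was 6.35 for *pglyrp5*, with 12.6% of all targets dimmer, and 7.73 for *csf1ra*, with 32.9% dimmer. These shares rank array signals, which depend on the probes, and are not RNA levels. The deposited table has no background reading, so whether the *pglyrp5* signal exceeds background was not tested.

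The probes of *csf1ra* moved together across the arrays and those of *pglyrp5* did not. Over the 12 arrays, 42 of the 45 pairs of *csf1ra* probes had a correlation above 0 (mean r = 0.379), whereas 2 of the 10 pairs of *pglyrp5* probes did (mean r = -0.103, between -0.298 and 0.108). Among the 35395 targets with at least 5 probes, the median of this mean r was 0.296. It was lower than that of *pglyrp5* in 0.0622% of targets and lower than that of *csf1ra* in 61.6%. In the dimmest 25% of targets, which hold *pglyrp5*, the median was 0.132, and 6.99% of targets were at or below 0. In the next 25%, which hold *csf1ra*, these were 0.282 and 2.62%. These correlations are descriptions over 12 arrays that share 4 groups and 1 normalization.

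**Figure D1:**
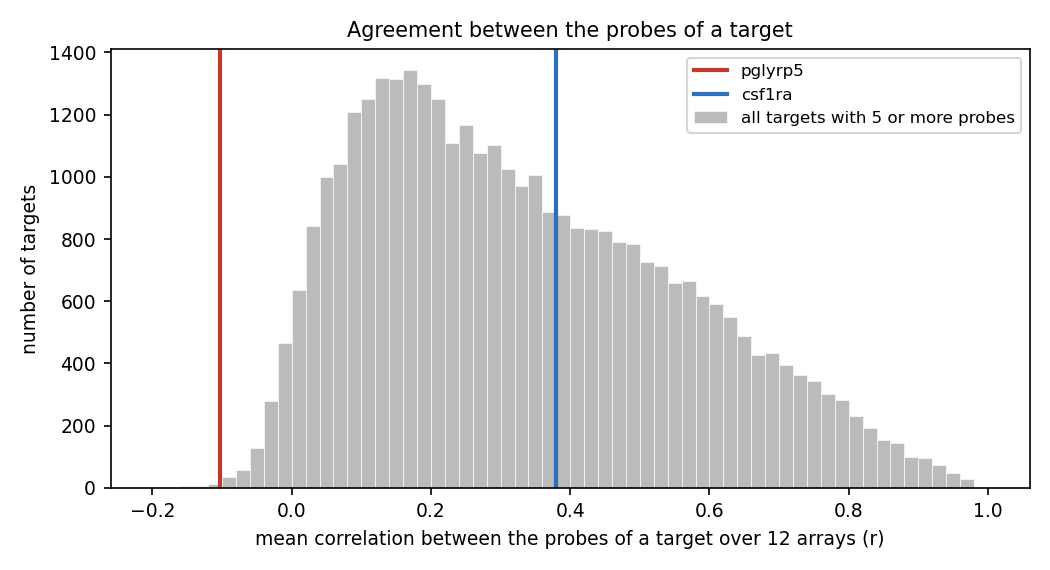
Number of targets (vertical axis) by the mean correlation between the probes of a target over 12 arrays (horizontal axis, r), for the 35395 targets with at least 5 probes, in bins of 0.02. The red line marks *pglyrp5* at -0.103, at the far left edge, and the blue line *csf1ra* at 0.379, above the median of 0.296.

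At 72 hpf the *pglyrp5* signal was higher on every Pb array than on any control array. The log2 intensities were 6.57, 6.59, and 6.71 on the Pb arrays of replicates 1, 2, and 3, against 5.98, 6.13, and 6.26 on the control arrays. The 2 groups did not overlap. The means were 6.62 ± 0.0737 with Pb and 6.12 ± 0.142 in controls (SD, n = 3 arrays each), a log2 difference of 0.50 (standard error 0.179), or 1.41-fold. Within pairs, each formed by the Pb and the control array of one replicate number, the differences were 0.59, 0.46, and 0.44. Across all targets, the Pb and the control arrays did not overlap for 4.7% (higher with Pb for 2.78%), and limma, a linear model with a shared spread fitted to all targets, put 0% of targets under an adjusted p of 0.05 (0 of 37157, and 566 at an unadjusted p under 0.05). These shares are background, since the gene was chosen on this comparison. The ratios of dim targets shifted most in pair 3. Over the dimmest 25%, the median log2 difference between Pb and control was 0.13, -0.10, and 0.55 in pairs 1, 2, and 3, so *pglyrp5* lay above this median in pairs 1 and 2 and below it in pair 3.

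Most of the *pglyrp5* difference at 72 hpf came from its 2 last probes. Of the 5 probes, 4 had a higher mean with Pb, but the differences ran from -0.11 to 1.27. The probe at 792 nt averaged 6.69 ± 0.704 with Pb and 5.42 ± 0.0933 in controls, and its groups were the only ones among the 5 probes that did not overlap. The share of all single probes without overlap was not computed. The probe at 1151 nt averaged 6.53 ± 0.829 with Pb and 5.72 ± 0.71 in controls. The mean difference was 1.04 over these 2 probes and 0.14 over the other 3, at 305, 362, and 480 nt, so that 83.5% of the summed difference lay in the 2 last probes. Single probes varied more between replicates than their average did. The SD within groups had a mean of 0.625 over the 5 probes, against 0.137 for the average of the probes.

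At 120 hpf the *pglyrp5* signal overlapped between Pb and control. It was 6.26, 6.40, and 6.51 on the Pb arrays, against 6.12, 6.51, and 6.20 on the control arrays. Across all targets these groups did not overlap for 4.04%. The second control array was level with the highest Pb array, and in that pair the sign turned (differences of 0.14, -0.11, and 0.32). The means were 6.39 ± 0.126 with Pb and 6.28 ± 0.206 in controls (SD, n = 3 each; log2 difference 0.11, standard error 0.179). Leaving out the control array of replicate 1 gave a difference of 0.04, and leaving out that of replicate 2 gave 0.23. The probe at 1151 nt, one of those that carried the difference at 72 hpf, lay the other way here, with a difference of -0.60. The difference at 120 hpf minus that at 72 hpf was -0.38 (standard error 0.253). limma called 0% of targets for Pb at 120 hpf and 0% for the difference between the stages (0 of 37157 each, with 112 and 75, or 0.301% and 0.202%, at an unadjusted p under 0.05).

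**Figure D2:**
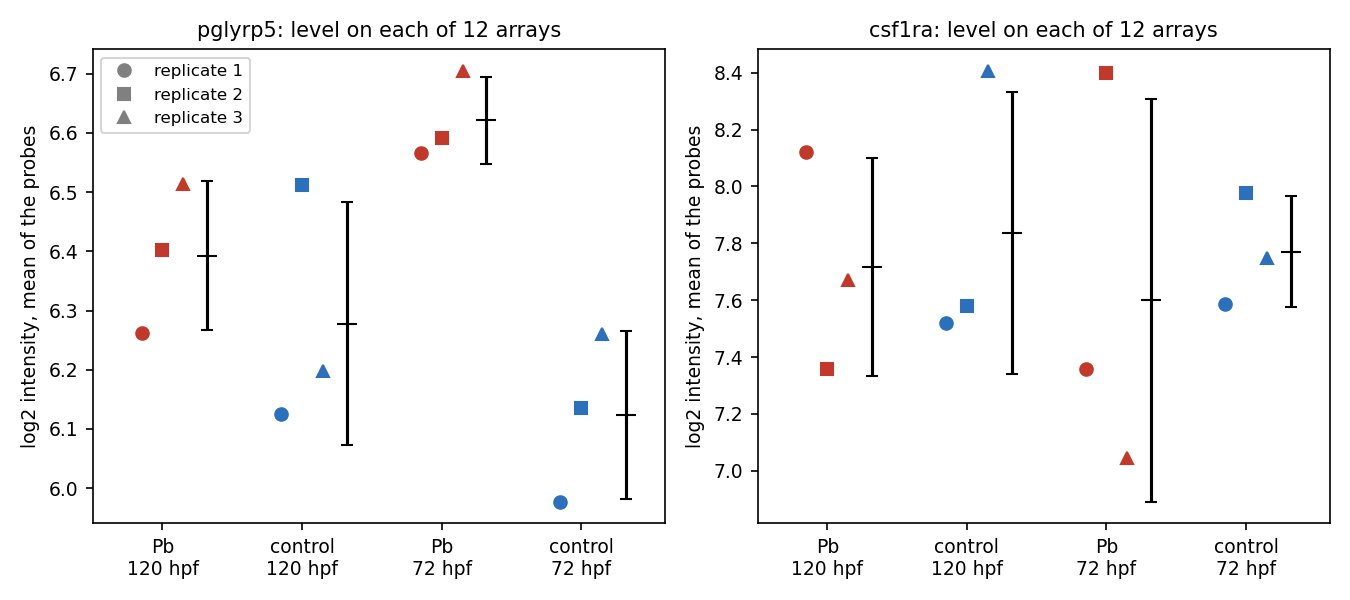
Log2 intensity of *pglyrp5* (left) and *csf1ra* (right) on each of the 12 arrays, as the mean of 5 and 10 probes, by group, with one marker shape per replicate number. Black bars give the mean and SD of 3 arrays, and the vertical axes differ and do not start at 0. The 3 Pb values of *pglyrp5* at 72 hpf lie between 6.57 and 6.71, above all 3 control values, while all groups of *csf1ra* overlap.

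Between the stages *pglyrp5* was lower at 120 hpf with Pb, without overlap, and overlapped in controls. With Pb it averaged 6.39 at 120 hpf and 6.62 at 72 hpf (log2 difference -0.23, standard error 0.179), and the highest array of 120 hpf (6.51) was just below the lowest of 72 hpf (6.57). In controls it averaged 6.28 at 120 hpf and 6.12 at 72 hpf (log2 difference 0.15, standard error 0.179), with overlapping arrays. This difference was 0.04 without the control array of replicate 2 at 120 hpf and 0.23 without that of replicate 1. For comparison, the arrays of the stages did not overlap for 15% of all targets with Pb (lower at 120 hpf for 6.98%) and for 30.7% in controls. By group mean the order was Pb at 72 hpf, Pb at 120 hpf, control at 120 hpf, and control at 72 hpf, and of the neighbors in this order the first pair alone did not overlap.

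The *csf1ra* signal varied more between the arrays of a group than between groups. At 72 hpf it was 7.36, 8.40, and 7.04 on the Pb arrays of replicates 1, 2, and 3, against 7.59, 7.98, and 7.75 on the control arrays. The Pb arrays held both the highest and the lowest of these values. The means were 7.60 ± 0.708 with Pb and 7.77 ± 0.196 in controls (SD, n = 3 each; log2 difference -0.17, standard error 0.35). The pairs differed by -0.23, 0.42, and -0.70, so the sign was not shared. Leaving out the Pb array of replicate 3 gave a difference of 0.11, and leaving out that of replicate 2 gave -0.57. Of the 10 probes, 3 were higher and 7 lower with Pb, between -0.70 at 1629 nt and 0.26 at 2706 nt, and the groups overlapped at each of them.

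At 120 hpf *csf1ra* was at 8.12, 7.36, and 7.67 on the Pb arrays, against 7.52, 7.58, and 8.41 on the control arrays. One array stood high in each group, replicate 1 with Pb and replicate 3 in controls. The means were 7.72 ± 0.384 with Pb and 7.84 ± 0.495 in controls (SD, n = 3 each; log2 difference -0.12, standard error 0.35), and the pairs differed by 0.60, -0.22, and -0.74. The difference was 0.17 without the control array of replicate 3 and 0.06 without the Pb array of replicate 2. It was -0.32 without the Pb array of replicate 1, and -0.28 and -0.25 without the control arrays of replicates 1 and 2. With Pb, 5 probes were higher and 5 lower. The groups did not overlap at 2 probes, in opposite directions, with -0.69 at 2187 nt and 0.39 at 3246 nt. No share over all single probes was computed to set beside this count. The Pb difference at 120 hpf minus that at 72 hpf was 0.05 (standard error 0.496), and ran from -0.23 without the Pb array of replicate 3 at 72 hpf to 0.45 without that of replicate 2.

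**Figure D3:**
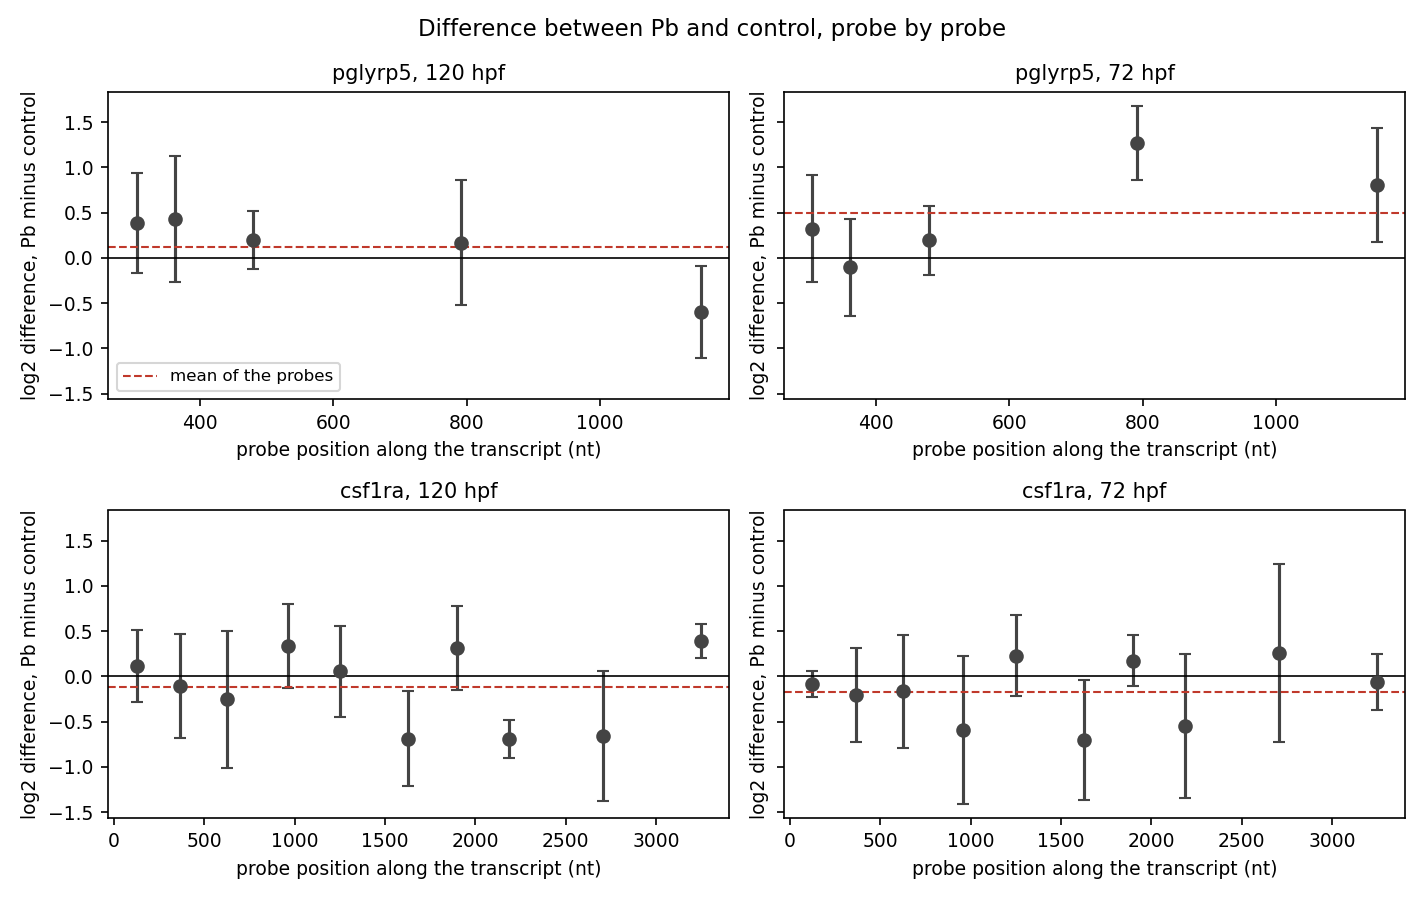
Log2 difference between Pb and control (vertical axis) for each probe of *pglyrp5* (top) and *csf1ra* (bottom) at 120 hpf (left) and 72 hpf (right), by the position of the probe along the transcript in nt. Bars give the standard error from the SDs of 3 and 3 arrays, and the red dashed line is the mean of the probes. At 72 hpf the *pglyrp5* probes at 792 and 1151 nt stand at 1.27 and 0.81, and the *csf1ra* probes lie on both sides of 0.

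Stage did not separate *csf1ra* either. With Pb it averaged 7.72 at 120 hpf and 7.60 at 72 hpf (log2 difference 0.12, standard error 0.35), and in controls 7.84 at 120 hpf and 7.77 at 72 hpf (log2 difference 0.06, standard error 0.35). Leaving out single arrays moved these differences to between -0.16 and 0.52 with Pb and between -0.22 and 0.22 in controls. Its 4 group means span less than the SD within 3 of the 4 groups, and every pair of groups overlaps, so their order carries no difference beyond the spread. Signal along the transcripts differed between arrays. From the first to the last probe, a single slope per array was fitted within targets, pooled over the probes of 21779 targets. This slope was 0.608, 0.103, and 0.0374 in log2 units on the Pb arrays of 72 hpf and 0.259, 0.0272, and 0.243 on their controls. The array with the highest *csf1ra* value at 72 hpf and that with the lowest had slopes of 0.103 and 0.0374. The part of this slope in the *csf1ra* values was not tested. Nor was its part in the *pglyrp5* difference at 72 hpf, most of which lay in the last probes.

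The other named peptidoglycan recognition proteins had mean differences above 0 at 72 hpf, with no call. *pglyrp2*, whose mammalian counterpart cleaves peptidoglycan, was at 6.98, 6.75, and 7.39 on the Pb arrays of 72 hpf, against 6.55, 6.74, and 6.56 on the control arrays. These groups did not overlap, though the Pb array of replicate 2 exceeded the highest control by little (log2 difference 0.43, standard error 0.258, adjusted p = 0.999 from limma). At 120 hpf its log2 difference was -0.07 (adjusted p = 1 from limma). *pglyrp6* was at 6.35, 6.29, and 7.70 on the Pb arrays of 72 hpf, against 6.41, 6.81, and 6.54 on the control arrays. Its mean difference of 0.19 (standard error 0.337, adjusted p = 0.999 from limma) rested on the Pb array of replicate 3, and the other 2 Pb arrays were below all 3 controls. At 120 hpf the log2 difference of *pglyrp6* was 0.41 (standard error 0.337), larger than at 72 hpf, with overlapping groups and no call. Between the stages, *pglyrp2* in controls averaged 7.47 ± 0.287 at 120 hpf and 6.62 ± 0.106 at 72 hpf (SD, n = 3 each), a log2 difference of 0.85 (adjusted p = 0.0907 from limma). With the probes combined by median polish in place of the mean, this difference was 1.05 and passed (adjusted p = 0.0246). Under the other 10 alternative settings, described below, 0 innate immune genes were called in this comparison.

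Of 172 further genes listed for innate immunity, 22 have a named target, and limma called 0 of them for Pb at either stage. At 72 hpf 16 of the 22 lay above 0 and 6 below, with a median log2 difference of 0.13, against 55.7% of all targets above 0 and a median of 0.0365. At an unadjusted p under 0.05 there were 2, against 1.52% of all targets. These were *il10*, an anti-inflammatory cytokine (log2 difference 0.65, standard error 0.276), and *havcr1*, a cell surface receptor of the TIM family (0.60, standard error 0.23), both with adjusted p = 0.999 from limma. The *il10* groups overlapped, with 6.40, 5.94, and 7.25 on the Pb arrays against 5.94, 5.99, and 5.71 on the control arrays. Its difference was largest in pair 3 and below 0 in pair 2. Of the 22, 10 belong to the dimmest 25% of targets, and the median difference of the 22 was 0.08, -0.06, and 0.45 in pairs 1, 2, and 3. At 120 hpf 13 of the 22 lay above 0 and 9 below, with a median of 0.04, against 50.9% of all targets above 0 and a median of 0.00416, and 0 had an unadjusted p under 0.05, against 0.301% of all targets.

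By role, genes listed for pathogen recognition or as antibacterial proteins lay mostly above 0 at 72 hpf. Of 7 measured, 6 were above 0 and 1 below, with a median of 0.27, against 55.7% of all targets above 0. The 1 below was *nkl.4*, listed as antibacterial, at -0.09 (standard error 0.255). The Toll-like receptors *tlr2* and *tlr18* had log2 differences of 0.29 and 0.27 (standard errors 0.309 and 0.202, adjusted p = 0.999 from limma for each), with overlapping groups. The *tlr2* mean rested on replicate 3, with 5.82, 5.54, and 6.94 on the Pb arrays against 5.81, 5.91, and 5.73 on the control arrays. The peptide hormone *hamp*, which controls iron and has antimicrobial activity, had 0.72 with a standard error of 0.621. The kinase *irak4*, which acts below those receptors, had 0.05. Of the 7, 5 belong to the dimmest 25% of targets. At 120 hpf 4 of the 7 were above 0 and 3 below, against 50.9% of all targets above 0. At 72 hpf the median of the 7 was 0.01, -0.06, and 0.52 in pairs 1, 2, and 3, where 4, 3, and 6 were above 0. Of 9 genes of cytokine and NF-kB signaling, 5 were above 0 and 4 below. *rela*, an NF-kB subunit, had the lowest value of all 22 genes at -0.54 (standard error 0.276, adjusted p = 0.999 from limma), while *nfkb2*, another NF-kB gene, had 0.03. Of 18 interleukins, TNF family members, and chemokine receptors, 16 were above 0 and 2 below, against 55.7% of all targets above 0. These 18 were taken by symbol once the annotation was seen, and *il1b*, *il10*, and *cxcr3.2* are also among the 22. The median difference of the 18 was 0.23, -0.12, and 0.53 in pairs 1, 2, and 3, where 14, 3, and 16 were above 0. At 120 hpf 10 of the 18 were above 0 and 8 below, against 50.9% of all targets above 0. Of the 18, 13 belong to the dimmest 25%. The part of this shift of dim targets in these counts was not tested.

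**Figure D4:**
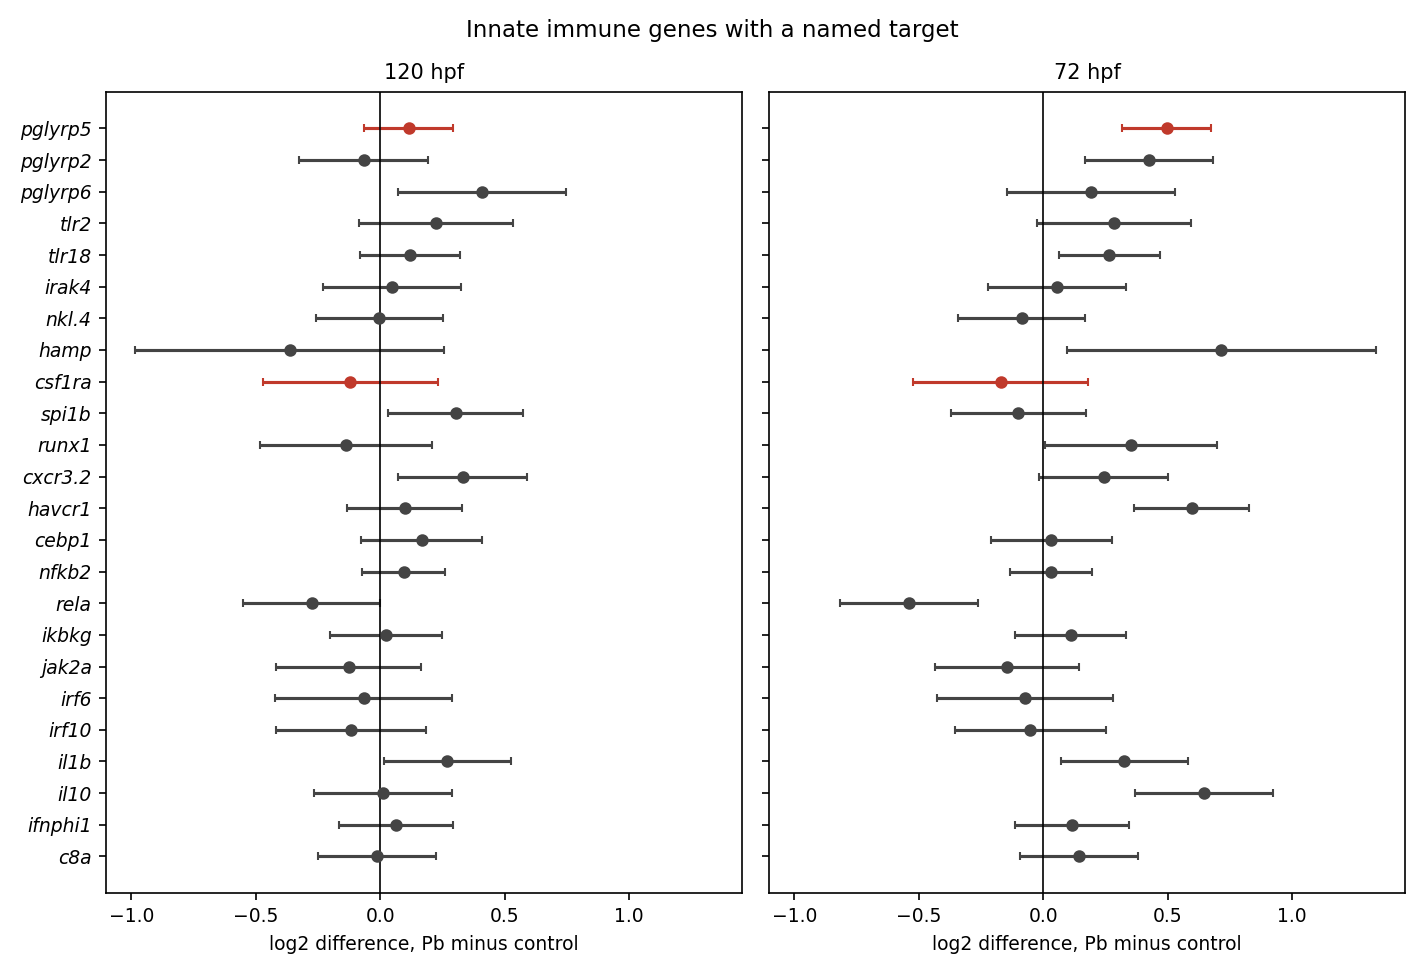
Log2 difference between Pb and control (horizontal axis) at 120 hpf (left) and 72 hpf (right) for *pglyrp5* and *csf1ra* (red) and the 22 other innate immune genes with a named target (dark grey). Bars give the standard error of the limma fit. At 72 hpf *rela* is lowest at -0.54 and *hamp* highest at 0.72, with the widest bars.

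Genes that work with *csf1ra* in macrophages could be followed in part. *spi1b*, the myeloid transcription factor Pu.1, was at 6.67, 7.39, and 7.24 on the Pb arrays of 72 hpf, against 7.02, 7.17, and 7.41 on the control arrays (log2 difference -0.10, adjusted p = 0.999 from limma). At 120 hpf it was at 7.94, 7.96, and 7.88 on the Pb arrays, against 7.77, 7.03, and 8.07 on the control arrays (log2 difference 0.30, adjusted p = 1 from limma). Both comparisons overlapped. Its stage difference was 0.82 with Pb (7.93 at 120 hpf and 7.10 at 72 hpf, adjusted p = 0.148 from limma) and 0.42 in controls (adjusted p = 0.491 from limma). *runx1*, a transcription factor of blood stem cells, had a stage difference of -0.86 with Pb and -0.37 in controls (adjusted p = 0.254 and 0.66 from limma). Of 29 further genes listed for macrophages and microglia, *cxcr3.2*, a chemokine receptor, and *havcr1* are named. Their log2 differences at 72 hpf were 0.24 and 0.60, so the larger came from *havcr1*. Whether *havcr1* signal in whole larvae comes from these cells was not tested. The summed intensity of *cxcr3.2* and *havcr1* ran from 426.3 to 591.6 with Pb and from 297.5 to 444.3 in controls at 72 hpf, with overlap. At 120 hpf it ran from 393.1 to 546.3 with Pb and from 377.9 to 398.8 in controls. The part of these markers in the values of *csf1ra* was not tested. Of 15 neutrophil markers 1, *cebp1*, is named, with a log2 difference of 0.03 at 72 hpf.

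Pigment cell genes had mean differences below 0 at both stages, with no call. Of 22 further pigment genes, 4 are named, and all 4 were below 0 at 72 hpf (median -0.30) and at 120 hpf (median -0.20). Of all targets, 55.7% were above 0 at 72 hpf and 50.9% at 120 hpf. *slc24a5*, an ion exchanger of melanosomes, was at 8.58, 8.96, and 8.82 on the Pb arrays of 72 hpf, against 9.75, 8.76, and 9.26 on the control arrays. These groups overlapped (log2 difference -0.47, standard error 0.343, adjusted p = 0.999 from limma). *dct*, an enzyme of melanin synthesis, had -0.24, *pmela*, a melanosome matrix protein, had -0.36, and *pax7a*, a transcription factor of xanthophores, had -0.10. The median difference of the 4 genes was -0.49, 0.21, and -0.64 in pairs 1, 2, and 3, with the signs that *csf1ra* had in these pairs. The single genes did not all share these signs, with 1, 4, and 1 of the 4 above 0. In pair 1 *pmela* was higher with Pb (12.53 against 12.35), and in pair 3 *pax7a* was (11.15 against 10.74). Bright targets shifted down in pair 3. Over the 9289 brightest targets, the median difference at 72 hpf was 0.10, 0.05, and -0.20 in pairs 1, 2, and 3. These targets hold *dct*, *pmela*, and *pax7a*, but not *slc24a5* or *csf1ra*. Across all targets, deviations from the group means had a correlation of -0.069 between the 72 hpf arrays of pair 3. That correlation gave no sign of a pair, though the deposited values of these arrays share a distribution. Whether the shared signs link *csf1ra* to pigment cells was not tested. At 120 hpf the median of the 4 genes was -0.17, -0.45, and -0.15, where *csf1ra* had 0.60 in pair 1. The summed intensity of the 4 genes ran from 8513 to 19130 with Pb and from 8933 to 20230 in controls at 72 hpf.

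Between the stages, limma made calls on the same arrays, among them 1 liver and 1 intestine marker. limma called 2.96% of all targets between the stages with Pb (1101, of which 830 or 2.23% were higher and 271 or 0.729% lower at 120 hpf) and 4.75% in controls (1765, of which 1341 or 3.61% were higher and 424 or 1.14% lower). It called 0 of the 22 innate immune genes in either (4 and 3 at an unadjusted p under 0.05, against 14.5% and 16.6% of all targets). *gc*, the vitamin D binding protein of the liver, was higher at 120 hpf by 1.64 with Pb (12.75 at 120 hpf and 11.11 at 72 hpf, adjusted p = 0.00947 from limma) and by 2.02 in controls (adjusted p = 0.00161). *ada*, adenosine deaminase, which was listed for intestine, was higher by 1.90 with Pb and 2.11 in controls (adjusted p = 0.000457 and 0.000142 from limma). *gc* was the 1 named of 16 liver markers and *ada* was 1 of 3 named of 12 intestine markers, and the other 2 were not called. *fabp1b.1*, a fatty acid binding protein, had stage differences of 0.16 with Pb and 0.83 in controls (adjusted p = 0.844 and 0.0905 from limma). *cdx1b*, an intestinal transcription factor, lay the other way, with -0.61 with Pb, where its arrays did not overlap, and -0.17 in controls (adjusted p = 0.164 and 0.759 from limma). The stages also did not overlap for *fabp1b.1* in controls, and for *gc* and *ada* with Pb and in controls. Across all targets, they did not overlap for 15% with Pb and for 30.7% in controls. None of 18 epidermal markers is named.

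The genes whose signal was most like each member over the 12 arrays were taken from 2649 other named genes by Pearson's r. For *csf1ra* they were *mul1*, a mitochondrial ubiquitin ligase (r = 0.875), *ctdspl2b* (0.873), *mfsd13a* (0.859), *slc9a6a*, a sodium and proton exchanger of endosomes (0.846), and *scube2*, which helps release Hedgehog proteins (0.839). Their Pb differences at 72 hpf lay between -0.26 and -0.05. For *pglyrp5* they were *rasl12*, a small GTPase (0.863), *chchd6b*, a protein of mitochondrial cristae (0.862), *zgc:165604* (0.854), the odorant receptor *or30bu1* (0.849), and *galk1*, galactokinase (0.847), with Pb differences at 72 hpf between 0.33 and 0.48. Since these genes were picked by their likeness over the same arrays, differences near those of *csf1ra* and *pglyrp5* follow from the choice. The 5 *pglyrp5* probes themselves had a mean r of -0.103. Between *pglyrp5* and *csf1ra* r was -0.294. These are descriptions over 12 arrays that share groups and normalization.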

How the data were processed

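RNA of pooled zebrafish larvae was hybridized to 12 one-color arrays, 3 per group, with group and replicate taken from the sample titles. The authors extracted intensities with NimbleScan and quantile normalized them, and the deposited table holds 1 linear intensity for each of 385000 probes and each array. RMA is named in the methods and in the submitters' processing notes, with its version not given in the sources used here, but the table is not summarized per target. Sorted log2 values differed by at most 0.00902 on average within a control and Pb pair and by at least 0.0838 between pairs.

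Here each intensity was put on the log2 scale, all 12 arrays were brought to a common distribution by quantile normalization, and each of 37157 targets received the mean of its probes. No background was subtracted and no target was left out. limma 3.58.1 in R 4.3.3 was fitted to the 4 groups, with Benjamini-Hochberg adjustment over all targets and a threshold of 0.05, and was checked on simulated data. Named targets (2663) came from the platform annotation and RefSeq. *pglyrp5* and *csf1ra* and the gene lists were chosen with earlier results of these data known. Named genes were these 2, up to 5 members of each list with the smallest p per comparison, relatives of either gene, and the 5 most like each by Pearson's r. *irak4*, *nfkb2*, and *nkl.4* at 72 hpf fall outside this rule and were chosen after their values were seen.

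To see whether replicate numbers pair the arrays, deviations of all targets from their group mean were correlated between same-numbered arrays. This correlation was 0.548, 0.434, and 0.268 at 120 hpf. At 72 hpf it was 0.452, 0.402, and -0.069, so this correlation gave no sign of a pair for replicate 3 there. Differently numbered arrays were not correlated for reference, so these values cannot establish pairing at either stage. The deposited values share a distribution within each same-numbered control and Pb pair at both stages, so their processing links the arrays of a pair. The differences within pairs are descriptions by replicate number. Alternatives were a replicate block, other normalizations and probe summaries, array weights, a filter on dim targets, the methods' t-test, and each array left out. The number of arrays limits the precision.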

Additional observations from a re-analysis of the deposited data

How the results depend on the processing

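The *pglyrp5* difference for Pb at 72 hpf was above 0 under all 11 alternatives, from 0.42 to 1.04. Its Pb and control arrays do not overlap, so leaving out single arrays could not turn this sign, and neither could the replicate block. The gene was also chosen on this comparison. The sign of *csf1ra* turned in 1 alternative for Pb at 72 hpf, in 3 at 120 hpf, and in 4 for each stage comparison. For the difference of both Pb comparisons it turned in 6 of 17. Restricting each gene to probes at most 500 nt before its last one, which leaves 2 probes of *pglyrp5* and 1 of *csf1ra*, put *pglyrp5* at 1.04 for Pb at 72 hpf, -0.22 for Pb at 120 hpf, -0.49 between stages with Pb, 0.77 between stages in controls, and -1.26 for the difference of both Pb comparisons, and *csf1ra* at 0.39 for Pb at 120 hpf. That 1 probe of *csf1ra*, at 3246 nt, is its dimmest. With values as deposited, the stage difference of *pglyrp5* was -0.60 with Pb and -0.21 in controls, and with median centering it was -0.33 with Pb. Median polish brought the innate immune genes called between stages in controls to 1, *pglyrp2*.

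limma called 0 targets for Pb at either stage and for the difference of both in every alternative of that test. The methods' t-test at the methods' thresholds of p and mean ratio, without their further criterion on each replicate, took 244 targets at 72 hpf, 81 at 120 hpf, 3481 between stages with Pb, and 5811 in controls. At an unadjusted p under 0.05 it took 532, 499, 3521, and 8110, and after Benjamini-Hochberg 0, 0, 24, and 596. Between stages, limma called 366 targets with Pb and 499 in controls with values as deposited, 364 and 3542 with the arrays compared alone, 1082 in controls with median centering, and 13841 in controls with array weights. Without single arrays it called 580 (without the Pb array of replicate 1 at 120 hpf) to 1363 with Pb and 747 (without the control array of replicate 1 at 72 hpf) to 1550 in controls. In controls it called 770 and 884 without the arrays of replicates 3 and 1 at 120 hpf, and 921 and 969 without those of replicates 2 and 3 at 72 hpf. With the replicate block it called 0 at each stage for Pb and 1204 and 1963 between stages. For Pb the block was the pair within a stage, and between stages it was the replicate number. The same correlation between stages was -0.308, -0.455, and 0.551 with Pb and 0.203, 0.0598, and -0.117 in controls. It too has no reference from differently numbered arrays, so it cannot establish pairing across stages. The groups are balanced, so the block could not change the differences of *pglyrp5* and *csf1ra*. It gave a standard error of 0.16 for *pglyrp5* at 72 hpf and changed no call on the innate immune genes.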
